A study of Mus musculus with 4 samples.

Results

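RNA of mouse fetal pancreas at E13.5 (E, embryonic day) was compared with that at E11.5, gene by gene. The genes were chosen by level: a deposited value of at least 1 FPKM (fragments per kilobase of transcript, scaled to the library, so a level per length) in either stage. This rule took 13545 of 54532 Ensembl genes, of which 10577 reached it at both stages, 1784 at E11.5 only and 1184 at E13.5 only. At its edge, Syt1 was inside at 1.03 FPKM at E11.5, and Hoxb2 was just outside at 0.998 scaled FPKM. Both samples came from wild-type C57BL/6 mice, were sequenced from total RNA, and carried no engineered allele or treatment in the labels. The series names the material pancreatic epithelial cells and the sample labels name it fetal pancreas. The labels do not say how the epithelium was separated or how many fetuses were pooled.

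There was 1 sample for each stage, whose deposited values were the authors' means. The means could be written as whole reads of 2 libraries per stage, with estimated totals of 1.66e+07 and 1.63e+07 reads at E11.5 and 1.80e+07 and 1.59e+07 at E13.5. Where a gene's mean was split, its level is given as mean ± SD of the 2 recovered libraries, or as both library values. A level with no error belongs to a gene whose mean could not be split. The libraries of a stage differed by a median of 1.28 times counting error at E11.5 and 1.39 times at E13.5. No label says that they came from separate animals, so each p-value measures only the spread between libraries, which may be technical, and the stage cannot be told apart from the sample. Each of the 4 libraries held reads of Xist (1197 to 1504) and of the Y-linked Eif2s3y (675 to 856), so transcripts of female and male tissue were present in every library.

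The pancreas arises as buds of the foregut endoderm whose progenitor cells express the transcription factor Pdx1. As the epithelium branches, its tips give rise to acinar cells, which make digestive enzymes, and its trunk gives rise to ducts and, through cells that briefly express Neurog3, to hormone-producing endocrine cells. The buds lie beside mesenchyme, mesothelium, gut, liver and blood vessels.

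A gene counted as higher or lower when its levels were at least 2-fold apart on the log2(FPKM + 1) scale and the greater level was at least 5 FPKM. By this rule of size 857 genes (6.33%) were higher at E13.5 and 851 (6.28%) were lower, of 13545. These shares are the background for the counts of each gene list below. The median difference over all 13545 genes was -0.06 on the log2 scale. At least 16-fold apart were 52 genes that were higher and 72 that were lower. On the recovered libraries, limma tested 11947 genes and called 3872 (32.4%) as risen and 4756 (39.8%) as fallen at a Benjamini-Hochberg adjusted p under 0.05. Since this test called most genes, counts by the rule of size lead. The words rose and fell are kept for limma's calls. Of the 857 higher genes 685 also rose, 2 were tested and not called, and 170 could not be tested. Of the 851 lower genes 710 also fell, 4 were not called and 137 could not be tested. With the summed FPKM of the stages set equal without haemoglobin and mitochondrially encoded genes, the median of all genes moved by -0.14, and 38.6% of the called genes were higher in place of 50.2%. Nudt14 (24.7 to 50.5 FPKM) and Pa2g4 (56.3 to 114) lay just inside the 2-fold limit, and Acot13 (33.9 to 68.8) and Fscn1 (47.3 to 23.2) just outside it.

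**Figure D1:**
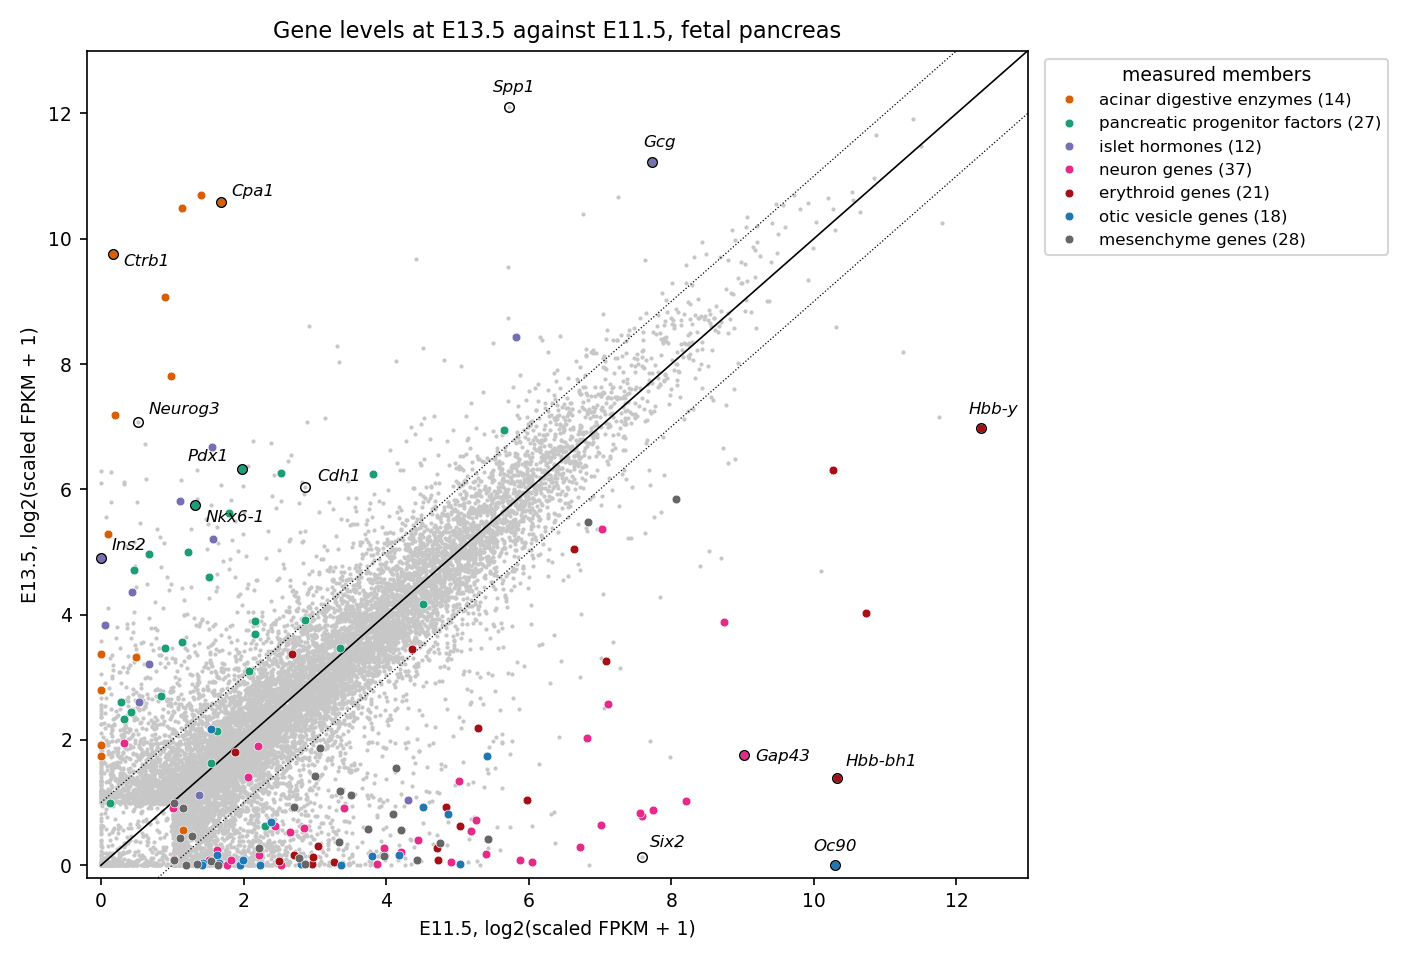
Each grey point is 1 of the genes plotted by log2(scaled FPKM + 1) at E11.5 (x axis) and E13.5 (y axis), coloured points are the measured members of 7 gene lists, the solid line marks equal levels and the dotted lines a 2-fold difference. Most enzyme, hormone and progenitor genes lie above the line and most neuron, erythroid, otic and mesenchyme genes below it, with Oc90 at 0 at E13.5.

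The labels were checked with 6 marker genes, and the pancreatic markers and Cdh1 were far lower at E11.5 than at E13.5. Pdx1, which specifies the pancreatic bud, stood at 2.58 and 3.29 FPKM in the E11.5 libraries and at 80.0 and 78.02 in the E13.5 libraries. Nkx6-1, a factor of trunk progenitors and later of beta cells, stood at 1.600 and 1.39 and then at 53.0 and 52.8 FPKM. Both genes rose (log2 differences of 4.35 ± 0.09 and 4.44 ± 0.05, estimate ± SE from limma, adjusted p = 1.26e-07 and 2.68e-08). Neurog3 went from 0.429 to 134 FPKM and Cdh1, which encodes E-cadherin, from 6.28 to 64.7. Neither had a test, since their E13.5 means could not be split. The E11.5 sample held high levels of genes that mark other tissues. Oc90, which encodes a protein of the otoconia of the inner ear, was at 1251 FPKM at E11.5 and had 0 reads in both libraries at E13.5, at least 28600.4-fold lower when a floor of 3 reads over both libraries is set. Hbb-y, an embryonic globin, was the most abundant gene of the E11.5 sample at 5197 FPKM and was at 133 and 116 at E13.5. The E11.5 sample thus held Pdx1, Nkx6-1, Neurog3 and Cdh1 at low levels beside abundant transcripts of other tissues, which goes against its label in part.

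In bulk RNA, fewer cells of a type and less RNA per cell cannot be told apart. The counts of the pancreatic lists were therefore also taken per epithelial transcript, by setting the median ratio of 25 epithelial genes, which were 3.03-fold higher at E13.5, to no change. These 25 are the list of epithelial identity genes, so that list cannot move as a whole on this scale. On that scale the median of all genes moved by -1.27 (log2) to -1.33, and of 13545 genes 176 were higher and 7074 lower. These counts and this median are the background for all values per epithelial transcript below.

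Epithelial genes were higher at E13.5. Of 25 measured genes of epithelial identity, 18 were higher and 1 was lower, and the median log2 difference was 1.40. Of the 16 that could be tested, 13 rose and 2 fell. Cdh1 had the largest difference. Epcam, a surface glycoprotein of epithelial cells, went from 294 to 768 FPKM, so the epithelial surface marker was already abundant at E11.5 while E-cadherin was not, and per epithelial transcript Epcam turned to -0.22 (log2). Epcam is a member of the list that sets that scale, so this value only places it under the median of its own list. Keratin genes differed among themselves. Krt7 went from 8.21 to 54.8 FPKM, Krt18 from 332 to 527, and Krt19 from 83.7 ± 0.827 to 76.5 ± 1.43. The splicing regulator Esrp2 rose from 1.58 ± 0.145 to 10.7 ± 0.464 FPKM, and its paralogue Esrp1 was within 2-fold (4.89 ± 0.432 to 6.42 ± 0.119).

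Tight junction genes were also higher. Of 21 claudins and tight junction genes, 13 were higher and 1 was lower. Per epithelial transcript 1 was higher and 3 were lower, though Cldn3 is also in the list that sets that scale. Cldn10 went from 3.40 to 108 FPKM, Cldn3 from 71.9 to 333 and Cldn7 from 53.9 to 198. Cldn9 went the other way and fell from 88.6 ± 0.390 to 22.4 ± 0.601 FPKM. Genes of apical polarity moved less, with 3 of 25 higher and 2 lower, beside 6.33% and 6.28% of all genes. Muc1, a mucin of the luminal surface, rose from 1.41 ± 0.309 to 40.3 ± 0.868 FPKM, and the Crumbs protein gene Crb3 from 21.8 ± 0.988 to 58.2 ± 3.10.

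Most transcription factors of the pancreatic progenitor were higher at E13.5. Of 27 measured factors 18 were higher and 1 was lower, and the median log2 difference was 2.01. Of 21 that could be tested, 18 rose and 1 fell. Per epithelial transcript the median was 0.89, 10 were higher and 4 lower. The foregut factor Foxa2 stood at 2.28 and 2.69 FPKM at E11.5 and 48.4 and 47.8 at E13.5. Its relative Foxa3 rose from 1.34 ± 0.188 to 31.1 ± 0.116, while Foxa1 stayed low (2.10 ± 0.340 and 3.39 ± 0.270). Hhex, a factor of the ventral foregut, went from 4.78 to 75.6 FPKM. Mnx1, needed for the dorsal bud, rose from 0.859 ± 0.0204 to 10.02 ± 0.753. Prox1 rose from 1.20 ± 0.0526 to 10.8 ± 0.194, and Gata4 from 3.47 ± 0.672 to 13.96 ± 0.360. Sox9, which maintains the progenitors, was at 49.5 FPKM at E11.5 and 123 at E13.5. Which tissue of the E11.5 sample its transcripts came from was not tested. The log2 difference of Sox9 was 1.30 and became -0.28 per epithelial transcript, so its direction depended on the scaling. Isl1, a factor of endocrine cells, mesenchyme and many neurons, was the lower member (129 to 40.4 FPKM).

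**Figure D2:**
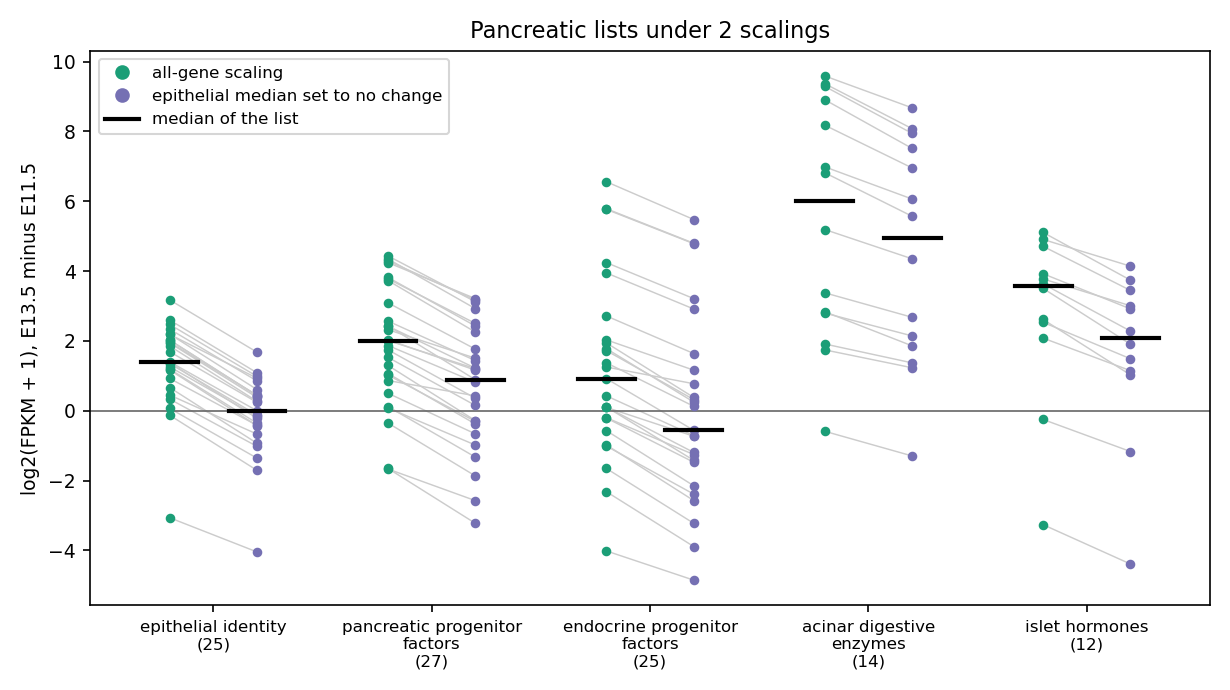
Each point is a measured member of 1 of 5 gene lists (x axis, number of members in brackets), with its log2(FPKM + 1) difference, E13.5 minus E11.5, on the y axis under all-gene scaling (green) and with the epithelial median set to no change (purple), and bars mark medians. Progenitor, enzyme and hormone medians stay above 0 on both scales, and that of endocrine progenitor factors goes from 0.92 to -0.56. The median of all genes on the second scale was -1.33.

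Digestive enzyme genes had the largest median difference, in either direction, of the gene lists measured. Of 14 measured digestive enzyme genes 11 were higher and 0 lower, and the median log2 difference was 6.00. Together they held 0.00305% of the summed FPKM at E11.5 and 1.91% at E13.5. Per epithelial transcript 10 were higher and 0 lower. The carboxypeptidase gene Cpa1 went from 2.21 FPKM to 1539. Pnliprp1, a lipase-related protein gene, went from 1.19 to 1445, Clps, which encodes the lipase cofactor colipase, from 0.861 to 538, and the chymotrypsinogen gene Ctrb1 from 0.125 to 864. These means could not be split at E13.5 and had no test. The trypsinogen gene Prss2 was at 0.134 and 0 FPKM at E11.5, then rose to 40.3 and 35.6. Other enzyme genes were low at both stages. Cela2a and Cela3b had 0 reads at E11.5 and only 2.35 ± 0.274 and 2.76 ± 0.0887 FPKM at E13.5, and Ctrl fell from 1.22 ± 0.122 to 0.476 ± 0.0943. Try5 and Amy2b share sequence with near copies, so their values are uncertain.

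Among accessory genes of acinar secretion, 6 of 11 were higher and 0 lower, and per epithelial transcript 4 were higher and 1 lower. Serpini2 and Reg1 had 0 reads at E11.5 and 77.7 ± 2.55 and 67.9 ± 5.63 FPKM at E13.5, at least 1323-fold and 741-fold higher against the floor of 3 reads. Cckar, the receptor for the hormone cholecystokinin, went from 0.548 to 70.5 FPKM. Of 11 acinar transcription factors 6 were higher and 0 lower, and the median log2 difference was 1.70. Per epithelial transcript it was 0.12, with 2 higher and 2 lower. Rbpjl, the acinar subunit of the PTF1 complex, rose from 0.274 ± 0.0431 to 33.1 ± 0.298 FPKM. Ptf1a, its partner, rose from 0.603 ± 0.119 to 30.4 ± 1.17, with 40.4% of its exon bases overlapping another annotated gene. Bhlha15, a factor of mature secretory cells, rose from 0.119 ± 0.0355 to 7.13 ± 0.510, and Nr5a2 from 0.220 ± 0.0235 to 5.10 ± 0.480. Tcf12, an E protein that can pair with Ptf1a, fell from 6.48 ± 0.0954 to 3.54 ± 0.0474.

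PTF1 binds an E-box followed by a TC-box, here searched as CACCTG and TTTCCC on both strands in the 200 bases before the annotated start. Of 11 measured enzyme genes with a promoter in the table, 6 held CACCTG, 6 held TTTCCC and 3 held both, against 13.9%, 17.8% and 2.28% of all 32851 promoters. The 3 promoters with both are shown because their genes moved together. They are from RefSeq on GRCm38.p6, at chr15:100687921-100688120 (minus strand) for Cela1, chr2:28563404-28563603 (minus strand) for Cel and chr6:41521576-41521775 (plus strand) for Prss2, with matches in capitals.
Cela1: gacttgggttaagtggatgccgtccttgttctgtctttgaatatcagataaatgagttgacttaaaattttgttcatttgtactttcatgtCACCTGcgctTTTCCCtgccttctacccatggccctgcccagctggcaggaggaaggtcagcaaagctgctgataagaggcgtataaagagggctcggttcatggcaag
Cel: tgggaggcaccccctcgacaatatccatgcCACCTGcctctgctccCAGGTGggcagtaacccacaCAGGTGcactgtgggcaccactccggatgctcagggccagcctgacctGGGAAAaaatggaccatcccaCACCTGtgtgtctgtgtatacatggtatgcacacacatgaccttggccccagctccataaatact
Prss2: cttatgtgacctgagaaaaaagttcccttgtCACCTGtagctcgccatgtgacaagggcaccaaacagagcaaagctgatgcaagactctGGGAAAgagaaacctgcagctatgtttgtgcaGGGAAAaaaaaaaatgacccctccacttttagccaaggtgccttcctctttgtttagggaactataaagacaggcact
In Cela1 the CACCTG match begins 109 bases and the TTTCCC match 99 bases before the start. Cela1 went from 0.981 FPKM to 222, and Cel, which encodes the bile salt-stimulated lipase, from 0.144 to 144. A match is a description of the letters and not evidence of binding.

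Genes of the trunk and ducts were higher in 9 of 15 cases and lower in 0, and the median log2 difference was 1.65. Per epithelial transcript the median was 0.25, with 4 higher and 3 lower. Spp1, which encodes the secreted phosphoprotein osteopontin, became the most abundant gene of the E13.5 sample (52.0 to 4415 FPKM). Hes1, the Notch target that holds cells as progenitors, rose from 13.1 ± 0.204 to 74.9 ± 0.503. Bicc1, an RNA-binding protein linked to cystic ducts, rose from 2.02 ± 0.133 to 9.38 ± 0.212, and Dcdc2a fell from 5.77 ± 0.153 to 2.93 ± 0.0141.

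Endocrine progenitor factors were more often higher than lower, and the median log2 difference was 0.92. Of 25 measured factors 10 were higher, 4 were lower and 11 were neither. Per epithelial transcript the median was -0.56, with 6 higher and 9 lower, beside 176 and 7074 of all 13545 genes. Factors that act with or soon after Neurog3 were among the higher ones. Fev stood at 0.236 and 0.276 FPKM and then at 66.6 and 69.9, and Pax4, a factor of the beta and delta lineages, at 0.302 and 0.193 and then at 67.8 and 66.1. Both genes rose. Nkx2-2, a factor of several endocrine lineages, rose from 0.384 ± 0.0336 to 25.2 ± 0.629 FPKM. The lower members were genes that neurons and the inner ear also express. Neurod1 went from 197 to 38.7 ± 2.10 FPKM, Isl1 as given above, and Lmx1a fell from 17.2 ± 0.448 to 0.126 ± 0.0688. Insm1 (20.5 ± 0.111 and 22.2 ± 0.736), Myt1 (2.20 ± 0.0827 and 1.79 ± 0.135) and St18 (4.34 ± 0.121 and 3.62 ± 0.189) were within 2-fold. The E11.5 sample held 0.932% of its summed FPKM in neuron genes, and how far these moved the endocrine list was not tested.

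Hormone genes were higher in 10 of 12 cases and lower in 1, and the median log2 difference was 3.57 (2.09 per epithelial transcript). Gcg, the glucagon gene, was already at 211 FPKM at E11.5 and reached 2399.6 at E13.5. Pyy, which encodes peptide YY, followed the same order (55.7 to 346 FPKM). Ins2 had 0 reads at E11.5 and 32.6 and 25.3 FPKM at E13.5, at least 459-fold higher, and Ins1 went from 0.600 to 8.26. Iapp, co-secreted with insulin, rose from 1.96 ± 0.153 to 101 ± 7.04 FPKM, and the ghrelin gene Ghrl from 0.359 ± 0.0783 to 19.6 ± 1.53. Gut hormone genes were present too: Cck rose from 1.15 ± 0.558 to 55.1 ± 2.71 and Gast from 1.98 ± 0.457 to 36.0 ± 1.38. Sst, which encodes somatostatin, fell from 18.8 ± 0.368 to 1.06 ± 0.343 FPKM and stood at 120.3 at E15.5 and 3938 at E18.5.

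Granule genes moved in both directions. Of 28 genes 10 were higher and 5 lower. Per epithelial transcript 3 were higher and 8 lower, beside 176 and 7074 of all 13545 genes. Chgb, a granule matrix protein, went from 20.4 to 816 FPKM, the prohormone convertase gene Pcsk1 rose from 0.290 ± 0.0579 to 7.52 ± 0.0471, and Abcc8, the sulphonylurea receptor, from 0.631 ± 0.0329 to 12.9 ± 0.2996. Snap25, a membrane fusion protein of synapses, went from 31.6 to 1.55 FPKM, Rab3a fell from 32.2 ± 0.0816 to 11.4 ± 0.833, and Stx1a from 18.8 ± 0.0493 to 7.55 ± 0.725.

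**Figure D3:**
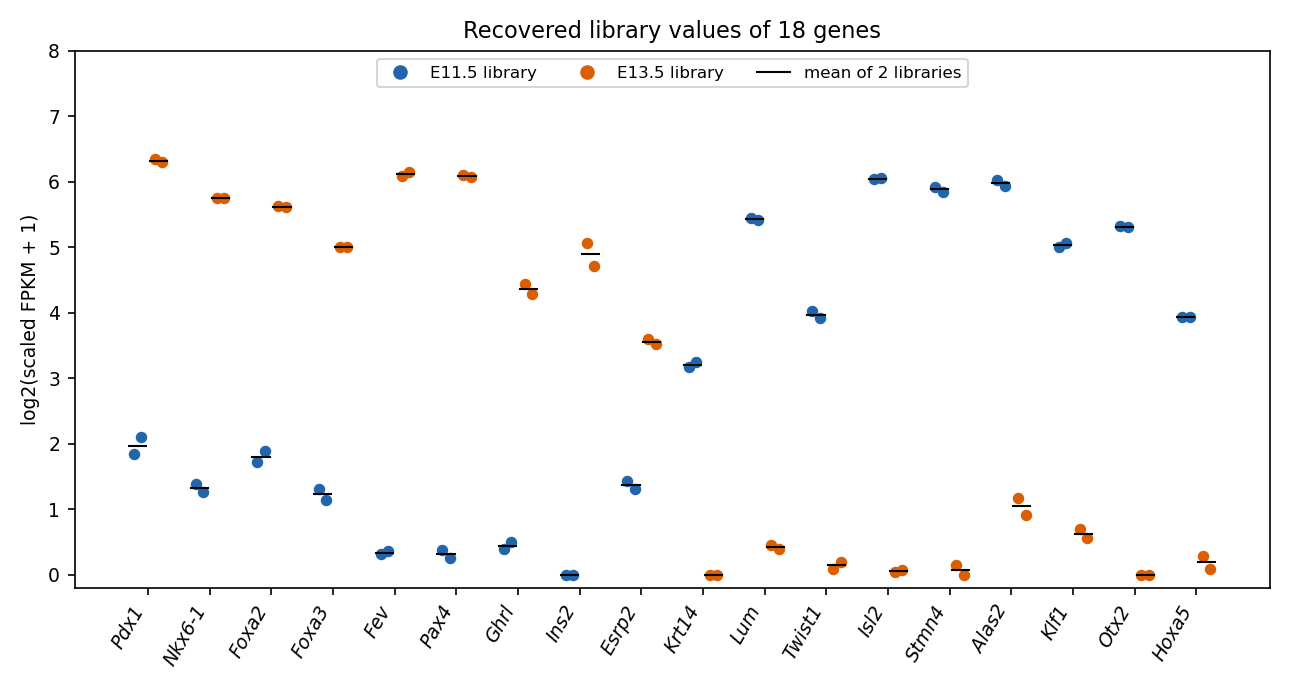
Points are the recovered library values of 18 genes (x axis) as log2(scaled FPKM + 1) (y axis), 2 libraries for each stage, E11.5 in blue and E13.5 in orange, with a line at their mean. For each of the 18 genes the libraries of a stage lie closer to each other than to the other stage, and the stages do not overlap. The 18 genes were picked with earlier results known, and limma called 72.2% of all tested genes as risen or fallen. Such a gap is therefore not particular to these 18.

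In the FGF pathway, which carries growth signals between mesenchyme and epithelium, 2 of 22 genes were higher and 8 lower. The E11.5 sample also held abundant RNA of other tissues. Which tissue the signalling transcripts here and in the next pathways came from was not tested. Fgf10, the mesenchymal ligand that expands pancreatic progenitors, stood at 9.43 and 9.68 FPKM at E11.5 and 0.0227 and 0.0515 at E13.5. Fgf18 fell from 23.2 ± 0.123 to 0.423 ± 0.0369, Fgf9 from 15.1 ± 1.06 to 1.05 ± 0.329, and Fgf8 from 9.08 ± 0.369 to 0.0219 ± 0.0310. Among receptors, Fgfr4 rose from 1.30 ± 0.166 to 15.1 ± 0.0367 FPKM, and Fgfr1 fell from 3.04 ± 0.0521 to 1.57 ± 0.121. Fgfr2, the epithelial receptor for Fgf10, rose from 3.04 ± 0.217 to 6.44 ± 0.426, which is under 2-fold on the log2(FPKM + 1) scale. The feedback inhibitors Dusp4 and Dusp6 fell from 8.81 ± 0.808 and 24.8 ± 0.995 to 3.44 ± 0.730 and 13.54 ± 0.360 FPKM.

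In the Wnt pathway, which acts in patterning and in progenitor growth, 1 of 34 genes was higher and 8 were lower, and of 32 tested 5 rose and 22 fell. The ligand gene Wnt4 fell from 36.1 ± 0.947 to 1.52 ± 0.0733 FPKM, and Wnt6 from 6.53 ± 0.158 to 0 reads. Wnt7b, an epithelial ligand, was the higher member and rose from 4.23 ± 0.278 to 13.3 ± 1.17. The secreted antagonists Sfrp1 and Sfrp2 fell from 42.0 ± 1.66 and 32.8 ± 0.414 to 1.77 ± 0.0286 and 2.14 ± 0.00462. The receptor genes Fzd2 (11.8 ± 0.260 and 12.4 ± 0.152) and Lrp6 (3.45 ± 0.0396 and 3.16 ± 0.0695) were tested and not called. Rnf43, a ubiquitin ligase that removes Wnt receptors, rose from 0.703 ± 0.00614 to 3.04 ± 0.0757.

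Of 31 genes of the TGF-beta, activin and BMP pathways 1 was higher and 6 were lower. Bmp4 stood at 12.3 and 13.8 FPKM at E11.5, then fell to 0.0233 and 0. Bmp7 was the higher member and rose from 9.94 ± 0.389 to 44.8 ± 0.181. The antagonist follistatin, Fst, fell from 12.5 ± 0.183 to 0.0471 ± 0.0301. In the retinoid pathway 2 of 18 genes were higher and 6 lower. Aldh1a2, which makes retinoic acid in mesenchyme and mesothelium, fell from 22.0 ± 0.418 to 0.599 ± 0.226 FPKM, and Cyp26a1, which degrades it, went from 37.8 to 0.0501. Rbp4, a carrier of retinol, went from 168 to 372. Hedgehog genes were lower in 1 of 14 cases and higher in 0, beside 6.28% lower and 6.33% higher among all genes. Its target Gli1 fell from 1.37 ± 0.0854 to 0.00524 ± 0.00741 FPKM, and its ligand Ihh rose from 1.94 ± 0.416 to 4.93 ± 0.224.

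Notch genes, which hold progenitors back from the endocrine fate, were mixed, with 3 of 27 higher and 4 lower, beside 6.33% and 6.28% of all genes. The ligands Dll1 and Jag1 rose from 1.98 ± 0.237 and 0.626 ± 0.104 to 6.71 ± 0.0841 and 2.11 ± 0.0652 FPKM, with 20.5% of the exon bases of Dll1 overlapping another gene. Dlk1, a related transmembrane protein, went from 70.7 to 345. The receptors Notch1 and Notch2 rose from 1.10 ± 0.114 and 0.540 ± 0.0126 to 2.52 ± 0.113 and 1.82 ± 0.0351. Among targets Hes1 rose as given above, and Hey1 fell from 15.6 ± 0.649 to 4.06 ± 0.0780. Of 18 Eph receptors and ephrins 3 were lower and 0 higher, among them Efnb2, which fell from 6.37 ± 0.0589 to 0.420 ± 0.0653 FPKM. Of 26 guidance genes 3 were higher and 1 was lower, beside 6.33% and 6.28% of all genes. Slit3 rose from 1.92 ± 0.0449 to 10.5 ± 0.249 and Ntn4 from 1.11 ± 0.0442 to 5.37 ± 0.297.

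**Figure D4:**
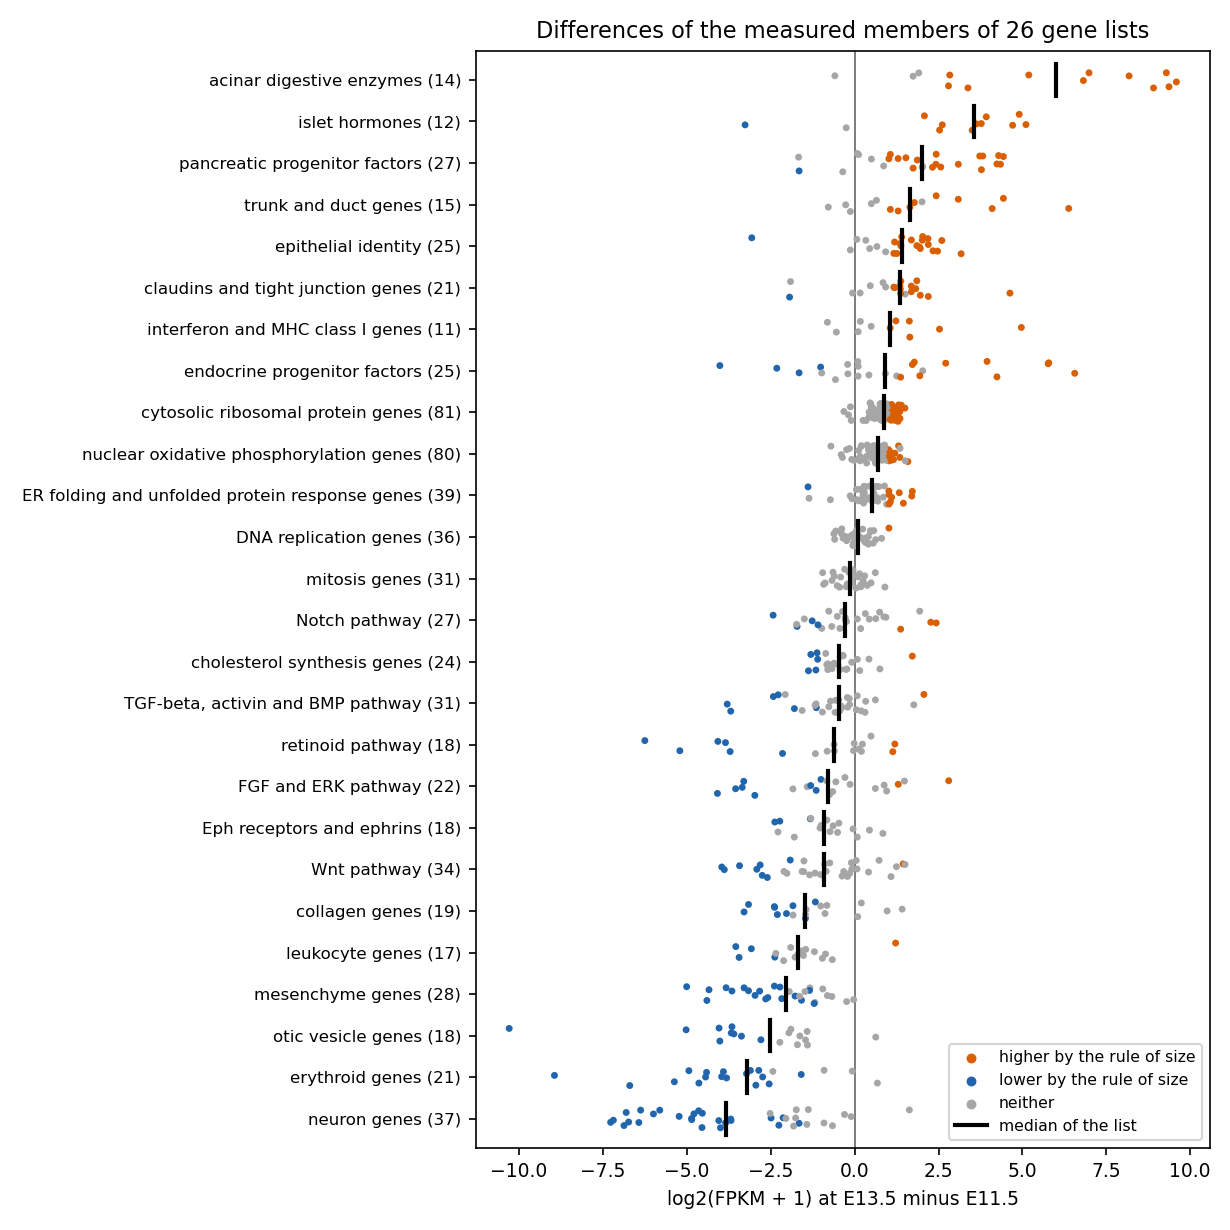
Each point is the log2(FPKM + 1) difference (x axis), E13.5 minus E11.5, of a measured member of 1 of 26 gene lists (y axis, number of members in brackets), orange where higher and blue where lower by the rule of size, with black bars at list medians. Under all-gene scaling, medians run from 6.00 for acinar enzymes to -3.84 for neuron genes, and those of replication and mitosis genes are near 0.

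Among 21 cadherins and adhesion receptors 2 were higher and 6 lower. The neural and mesenchymal cadherin Cdh2 fell from 13.1 ± 0.0473 to 1.12 ± 0.0880 FPKM and Cdh11 from 5.25 ± 0.140 to 0.238 ± 0.0296. Of 19 collagen genes 0 were higher and 9 lower. The fibrillar genes Col1a1 and Col3a1 fell from 12.4 ± 0.0669 and 16.2 ± 0.0720 to 0.499 ± 0.00428 and 0.755 ± 0.146 FPKM. In the integrin and laminin list 3 of 17 were higher and 1 was lower, beside 6.33% and 6.28% of all genes. The higher ones were the basement membrane chains Lamb1 (2.71 ± 0.116 to 7.87 ± 0.264) and Lamc1 (2.49 ± 0.322 to 9.43 ± 0.382) and the epithelial integrin Itga6 (2.80 ± 0.107 to 9.61 ± 0.291).

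Genes of neurons, inner ear, mesenchyme and blood were more often lower than higher at E13.5, while those of liver, gut and skin were divided. Neuron genes were lower in 25 of 37 cases and higher in 0, and the median log2 difference was -3.84. Gap43, a protein of growing axons, was at 520.0 FPKM at E11.5 and 2.82 and 1.94 at E13.5. Tubb3, the neuronal tubulin, went from 427 to 13.8 FPKM, and Stmn2 from 129 to 0.565 ± 0.00675. Isl2, a factor of motor and sensory neurons, fell from 65.1 ± 0.285 to 0.0389 ± 0.0213, and the sensory neuron gene Pou4f1 fell from 13.6 ± 0.553 to 0.0183 ± 0.0100. Ret, the GDNF receptor, went against the list and rose from 0.254 ± 0.0620 to 2.88 ± 0.178. In neural crest and glia, 6 of 12 genes were lower and 1 was higher. Sox10 fell from 41.9 ± 0.366 to 2.36 ± 0.0646 FPKM, and Gfra3, the receptor for artemin, went from 2.56 to 35.6. Brain factors were lower in 10 of 26 cases. Otx2, of the forebrain and midbrain, stood at 38.8 ± 0.168 FPKM and had 0 reads at E13.5.

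The otic vesicle is the embryonic inner ear, and 9 of 18 of its genes were lower at E13.5 and 0 higher. They held 0.471% of the summed FPKM at E11.5 and 0.00282% at E13.5. Beside Oc90, Otol1, a collagen-like otolith protein, fell from 9.34 ± 0.354 FPKM to 0 reads, and Eya1 from 12.9 ± 0.374 to 0.108 ± 0.0195. Eya1 is also a factor of cranial and nephric mesenchyme, of which 11 of 19 were lower. Six2, a nephric and craniofacial factor, was at 191 FPKM at E11.5 and 0.0913 ± 0.0106 at E13.5. Cnmd, a cartilage protein, went from 268 to 0.232 FPKM. Myog, the muscle factor, fell from 12.5 ± 0.234 to 0.147 ± 0.0397. Of 16 muscle genes 5 were lower and 0 higher by the rule of size, and 15 of 16 tested fell. Skin and surface ectoderm genes were mixed, with 2 of 16 higher and 3 lower, and 8 of 16 tested risen and 8 fallen. Krt14, a basal keratin, fell from 8.23 ± 0.315 to 0 reads, at least 173-fold lower, while Dsg2, a desmosomal cadherin, rose from 0.955 ± 0.00297 to 5.91 ± 0.383 FPKM. Many of these tissues lie far from the pancreas in the embryo, and how their RNA came to be in the E11.5 sample was not tested.

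Hox genes, which mark position along the body axis, were measured in clusters A, B and C, and each of the 4, 6 and 4 measured members fell. By the rule of size 2, 2 and 1 of them were lower and 0 higher. Hoxa5 stood at 14.2 and 14.2 FPKM at E11.5 and 0.223 and 0.0631 at E13.5, and Hoxa2, a hindbrain gene, fell from 13.7 ± 0.801 to 0.109 ± 0.0126. The most posterior measured gene, Hoxb9, fell from 3.62 ± 0.0306 FPKM to 0 reads. In cluster D, 0 of 9 genes reached 1 FPKM in either stage.

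Mesenchyme genes were lower in 18 of 28 cases and higher in 0, and 22 of 24 tested fell. Lum, a matrix proteoglycan, stood at 42.4 and 41.5 FPKM and then at 0.363 and 0.314. Barx1 and Tcf21, factors of stomach and splanchnic mesenchyme, fell from 7.43 ± 0.909 and 5.54 ± 0.508 to 2.66 ± 0.372 and 0.913 ± 0.0630, and Tlx1, of the spleen primordium, from 8.76 ± 0.913 to 0.442 ± 0.00184. Vim, the mesenchymal intermediate filament, was still at 43.8 FPKM at E13.5, from 112. The mesothelial genes Upk3b and Upk1b fell from 17.5 ± 0.958 and 9.07 ± 0.951 to 0.163 ± 0.125 and 0.201 ± 0.0364 FPKM.

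Among the lists of other tissues, erythroid genes held the largest share of the summed FPKM at E11.5. They were lower in 17 of 21 cases and higher in 0, and held 3.22% of the summed FPKM at E11.5 and 0.0854% at E13.5. The embryonic globins Hbb-bh1 and Hba-x went from 1287 and 1693 FPKM to 1.62 ± 0.243 and 15.3 ± 0.505, folds of 794 and 111, while Hbb-y went down 41.7-fold. The adult globin Hbb-bs fell less, from 98.0 ± 12.3 to 31.9 ± 0.229, with 53.2% of its transcript windows shared with another gene, so its value is uncertain. Alas2, the erythroid enzyme of haem synthesis, stood at 64.04 and 60.4 FPKM and then at 1.24 and 0.887. The promoters of Hbb-y (chr7:103853208-103853407, minus strand) and Hba-x (chr11:32276400-32276599, plus strand) are shown because these genes led the E11.5 blood signal. Capitals mark CACCC with CCAAT in Hbb-y, and CACCC with TATAAA in Hba-x, searched on both strands.
Hbb-y: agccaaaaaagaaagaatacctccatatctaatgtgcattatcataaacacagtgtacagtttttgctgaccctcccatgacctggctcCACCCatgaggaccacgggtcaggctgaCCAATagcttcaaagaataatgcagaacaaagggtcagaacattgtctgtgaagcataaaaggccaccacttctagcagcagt
Hba-x: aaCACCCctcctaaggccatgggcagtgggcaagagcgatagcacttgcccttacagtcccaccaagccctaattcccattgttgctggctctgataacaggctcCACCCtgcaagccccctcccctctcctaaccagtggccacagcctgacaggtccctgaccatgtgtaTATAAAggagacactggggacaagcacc
CACCC was held by 6 of 7 haemoglobin promoters and 45.5% of all promoters, CCAAT by 5 of 7 and 29.3%, and TATAAA by 2 of 7 and 9.96%.

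Leukocyte genes were lower in 4 of 17 cases and higher in 1. Of 16 tested 15 fell, beside 39.8% of all tested genes. The macrophage complement gene C1qb fell from 23.4 ± 0.723 to 1.24 ± 0.144 FPKM, while C1qa rose from 5.13 ± 0.498 to 13.3 ± 1.33. Of 23 endothelial genes 3 reached 1 FPKM. Liver genes were divided, with 8 of 20 higher and 9 lower. The plasma protein genes Alb and Afp went from 65.4 ± 1.81 and 337 FPKM to 0.552 ± 0.149 and 26.4. Ttr, the thyroid hormone carrier that alpha cells also express, went from 44.4 to 321, and Vtn, vitronectin, from 32.1 to 249.3. Gut and stomach genes held 0.0332% of the summed FPKM at E11.5 and 0.118% at E13.5. Of these, 3 of 14 were higher and 2 lower, and 8 of 12 tested rose while 3 fell. Lgals4, a galectin of gut epithelium, rose from 1.24 ± 0.122 to 8.58 ± 0.0984 FPKM.

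**Figure D5:**
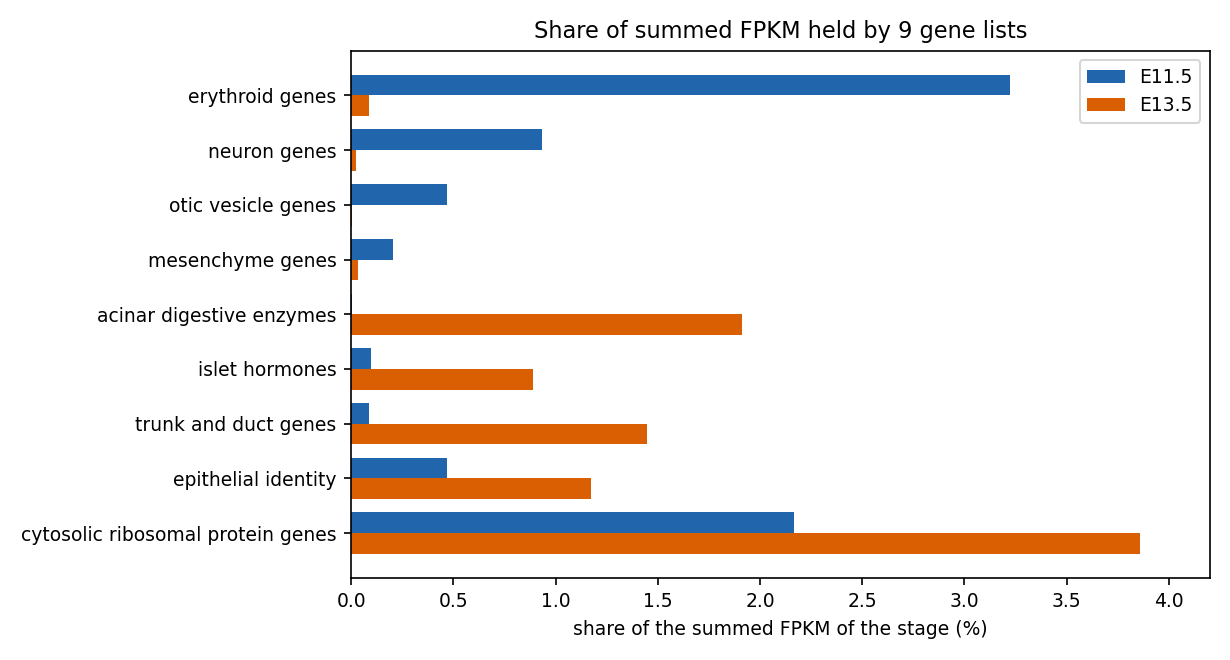
Bars give the share of the summed FPKM of a stage (x axis, percent) held by the genes of each of 9 lists (y axis), E11.5 in blue and E13.5 in orange. Erythroid genes go from 3.22% to 0.0854%, and acinar enzymes from 0.00305% to 1.91%.

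Genes of growth machinery moved together by small steps. Of 81 cytosolic ribosomal protein genes 29 were higher and 0 lower, and 40 of 45 tested rose while 0 fell. Their median log2 difference was 0.89, and -0.65 per epithelial transcript. Among the 35 with at most 20% of their exon bases or sequence windows shared with another gene, 11 were higher. Rps13 rose from 21.9 ± 1.12 to 54.5 ± 10.03 FPKM. Nuclear genes of oxidative phosphorylation had a median of 0.69 (-0.84 per epithelial transcript), with 14 of 80 higher and 0 lower, and 9 higher without E13.5 library 1. Atp5g1, a subunit of the ATP synthase ring, rose from 12.5 ± 1.503 to 39.4 ± 3.73. The sign of both medians thus turned with the scaling. Both stayed above the median of all genes, which was -0.06, and -1.33 per epithelial transcript.

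Cell division genes were near level under all-gene scaling. Of 36 replication genes 1 was higher and 0 lower, and of 31 mitosis genes 0 were higher and 0 lower. Per epithelial transcript their medians were -1.46 and -1.60, beside -1.33 for all genes, with 29 of 36 and 29 of 31 lower. Mcm2, a subunit of the replicative helicase, was at 27.8 ± 0.540 and 25.2 ± 0.515 FPKM, and Ccna2, the S-phase cyclin, at 44.8 ± 0.792 and 43.9 ± 2.58. Myc, a growth factor-induced transcription factor, rose from 10.1 ± 0.953 to 57.0 ± 0.979, and Mycn fell from 24.7 ± 0.613 to 12.6 ± 1.17. Cdkn1a, a cell cycle inhibitor, went from 22.2 to 88.2 FPKM.

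Metabolic genes differed by pathway. In cholesterol synthesis 5 of 24 genes were lower and 1 was higher, and of 22 tested 16 fell and 4 rose. Hmgcs1 fell from 41.3 ± 2.12 to 15.3 ± 0.0209 FPKM. Slc2a2, the beta-cell glucose transporter gene, rose from 0.480 ± 0.0191 to 6.08 ± 0.151 FPKM. Eno3, the muscle enolase, fell from 53.5 ± 1.48 to 7.34 ± 0.257. Slc38a5, an amino acid transporter, went from 51.5 to 744 FPKM. Asns, asparagine synthetase, rose from 31.9 ± 0.361 to 91.4 ± 4.58, and Mthfd1, of folate metabolism, from 11.1 ± 0.835 to 42.5 ± 0.643. Of 39 genes of protein folding in the endoplasmic reticulum 9 were higher and 1 was lower. Xbp1, the secretory cell factor, went from 51.2 to 169 FPKM, and Ddit3, a stress factor, fell from 20.3 ± 1.34 to 7.14 ± 0.463.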

How the data were processed

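RNA was sequenced from mouse fetal pancreas, 1 sample per stage. The submitters' processing notes name HISAT2 2.0.5 and the build mm10. The labels state no counting tool, annotation or number of libraries. Deposited values are FPKM that the authors averaged, per the file headers. Symbols and exon lengths came from GENCODE M21 on the same build.

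Stages were scaled by median-of-ratios factors over 9884 genes at 1 FPKM or more in all 4 stages (0.988 at E11.5, 1.03 at E13.5). Differences are on log2(FPKM + 1), which understates low genes, and the fitted difference of a gene with 0 reads is no bound. Deposited FPKM times exon length was written as whole reads of 2 libraries where only 1 pair fitted within 0.75 of the last printed place. This worked for 95.6% of the genes attempted, and rests on the values alone. On simulated data 21889 of 21889 splits at E11.5 and 21918 of 21918 at E13.5 were right, and 3 of 1210 and 4 of 1230 genes given a wrong length were split. Log2 values of the 8 libraries of all 4 stages were fitted with limma 3.58.1 in R 4.3.3 (trend, Benjamini-Hochberg at 0.05). In a simulation with dispersion 0.004 (11947 genes), the calls held 38 of 50 doubled and 33 of 50 halved genes and 2 of 11747 unchanged ones. A gene was uncertain where over 20% of its exon bases or sequence windows are shared with another.

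The named genes were, by rule, the 15 with the largest difference in each direction at 10 FPKM or more (without predicted genes, pseudogenes, histones and mitochondrial genes), up to 5 per list and direction, the 3 highest per list, 6 markers, the 5 most abundant of each stage, the 5 largest FPKM differences each way and 3 genes on either side of the 2-fold limit. Not all are described, some genes are not reported here, and other list members were named after their values were seen. The members and lists were chosen with earlier results of these data known.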

Additional observations from a re-analysis of the deposited data

How the results depend on the processing

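The limits are these. With 1 sample per stage, stage and sample cannot be told apart. The recovered libraries measure only their own spread, and the most abundant enzymes, hormones and globins had no test. No paired analysis was possible because each stage has 1 sample and the numbers of the recovered libraries pair nothing across stages. A gene at 0 reads is known only to lie under 3 reads over both libraries.

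The 857 higher and 851 lower genes became 529 and 556 with a pseudocount of 5, 1294 and 1699 with a minimum of 1 FPKM for the greater level, 439 and 336 with 20 FPKM, 1633 and 1520 at 1.5-fold, and 282 and 411 at 4-fold. Limma called 3872 and 4756, limma on the 4 libraries of both stages alone (added after seeing the data) 3909 and 4779, and limma's calls at least 2-fold apart (also added) 1071 and 1496. Leaving out each recovered library gave 840 to 902 higher and 851 to 860 lower. Per epithelial transcript 176 were higher and 7074 lower.

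Of the lists, members higher per epithelial transcript were 10 for progenitor factors, 2 for epithelial identity, 6 for endocrine progenitor factors, 0 for cytosolic ribosomal proteins and 0 for nuclear oxidative phosphorylation. Members lower were 22 of 34 for the Wnt and 13 of 22 for the FGF pathway, beside 7074 of all 13545 genes. The count for epithelial identity follows largely from the scale, which sets that list's median to no change. With a pseudocount of 5 the FGF pathway had 5 lower and oxidative phosphorylation 7 higher, and the latter had 5 and 4 higher at equal FPKM totals with and without haemoglobin and mitochondrially encoded genes, and 9 to 17 with each library left out. Limma called 5 acinar enzymes and 45 oxidative phosphorylation genes as risen, and 22 Wnt, 15 FGF, 14 collagen and 16 otic genes as fallen.

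Among list medians of at least 0.5 in size and named genes higher or lower by the rule of size, signs turned per epithelial transcript and under none of the other settings tried. These medians turned for endocrine progenitors (-0.56), granule genes (-0.18), tight junctions (-0.022), gonad genes (-0.24), protein folding (-0.92), interferon genes (-0.36), ribosomal proteins (-0.65) and oxidative phosphorylation (-0.84). All of them lay above the median of all genes on that scale, which was -1.33. Of the 151 named genes higher or lower by the rule of size, 13 turned: Asns (-0.081), C1qa (-0.20), Crb3 (-0.18), Egr1 (-0.048), Epcam (-0.22), H19 (-0.086), Junb (-0.12), Lamb1 (-0.052), Nudt14 (-0.55), Pa2g4 (-0.58), Rbp4 (-0.46), Rps13 (-0.28) and Sox9 (-0.28). Smaller values turned too: per epithelial transcript 11 of 21 list medians under 0.5 in size and 9 of 35 named genes that were neither higher nor lower, and under other settings at most 1 and 2 of them.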

Other observations

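Interferon-inducible and MHC class I genes were higher in 6 of 11 cases and lower in 0, beside a background of 6.33% of all genes. Ifitm3, a membrane protein that restricts viral entry, stood at 8.29 and 9.64 FPKM at E11.5 and rose to 336 and 285 at E13.5. Bst2, a membrane tether of enveloped viruses, rose from 5.93 ± 0.185 to 39.0 ± 3.03 FPKM, while Isg15, an interferon-induced modifier, fell from 1.02 ± 0.293 to 0.152 ± 0.117 and B2m, the light chain of MHC class I, from 111 ± 2.76 to 75.9 ± 0.633. H2-K1 went from 6.22 to 21.6.

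Imprinted genes, expressed from a single parental allele, were divided. Nnat, a paternally expressed gene of neurons and endocrine cells, was the third most abundant gene at E11.5 with 3451 FPKM and went to 142 at E13.5. H19, a maternally expressed noncoding RNA, went from 83.6 to 239 FPKM, Peg3 from 12.3 to 44.6, and Ndn, a gene of neurons, from 102 to 26.9. Ascl2 rose from 0.272 ± 0.0436 to 6.22 ± 0.543 FPKM. Immediate early genes, which respond within minutes to stimuli and to tissue handling, were higher in 7 of 21 cases and lower in 2. Egr1 went from 66.9 to 196 FPKM and Junb rose from 30.3 ± 0.234 to 84.7 ± 1.58.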
